A study of Mus musculus with 2 samples.

Results

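At postnatal day 2 the mouse ovary is turning nests of germ cells into primordial follicles. Germ cells that have passed through meiotic prophase arrest as small oocytes, many germ cells are lost as the nests break down, and the survivors are each enclosed by flattened granulosa cells. Oocytes of this age already hold a large store of RNA, with transcripts of the oocyte transcription factors, the zona pellucida (the glycoprotein coat of the egg) and maternal-effect genes, whose products are used by the early embryo. Most germ cells in droplet libraries therefore carry many transcripts, counted as unique molecular identifiers (UMIs, 1 for each captured molecule). A smaller set of cells carried germ cell transcripts at a low total, and these RNA-poor germ cells are described here.

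The data were 2 single-cell RNA-seq libraries from whole ovaries of female CD1 mice at postnatal day 2, an outbred strain, with no treatment or genetic change. Each library was a separate biological replicate made from pooled ovaries of littermates, so an RNA-poor cell cannot be traced to an animal. Ovaries were dissociated with collagenase IV and Accumax, and no sort or gate for germ cells is described. The libraries held 4094 and 4847 cells with 54471790 and 59074480 UMIs, and 3738 and 4464 cells had at least 500 genes and at most 10% of UMIs from mitochondrial genes. Both libraries shared 21 cell barcodes, none of them among the RNA-poor germ cells.

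A cell was called a germ cell when at least 3 of 7 genes were detected (Ddx4, Dazl, Figla, Ooep, Sohlh1, Padi6 and Sycp3) and those genes made up at least 0.1% of its UMIs. It was called RNA-poor when its total was under 10000 UMIs. These values chose 296 cells of the 8202 that passed the filters, 22 in library 1 and 274 in library 2. The remaining 703 germ cells (228 and 475) held 10000 UMIs or more and are called RNA-rich. RNA-poor cells made up 8.80% of the germ cells of library 1 (95% exact Clopper-Pearson interval 5.60 to 13.0%) and 36.6% of those of library 2 (33.1 to 40.1%). The intervals cover counting error only and did not overlap, so the libraries differed in this share by more than counting error. With 2 libraries no spread over animals can be given. The summed UMIs of the RNA-poor germ cells were 65302 in library 1 and 906363 in library 2, and every value from library 1 below rests on this small number.

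The 7 genes and the UMI total were used for the choice and are given as a description only. The median RNA-poor germ cell held 2303.5 UMIs in library 1 (612 to 9502) and 2481 in library 2 (609 to 9983), against 79316 and 61271 in RNA-rich germ cells. The 7 genes took a median 0.849% and 0.657% of UMIs in RNA-poor germ cells and 0.750% and 0.747% in RNA-rich ones. Ooep, part of the subcortical maternal complex of the egg, had 1011 CPM (counts per 1000000 UMIs of the summed cells) in the RNA-poor cells of library 1 and 2535 in those of library 2, against 2788 and 3367 CPM in RNA-rich cells. Sycp3, a lateral element of the synaptonemal complex that joins homologous chromosomes in meiosis, had 2848 and 1178 CPM against 1766 and 1355. The RNA-poor values of the libraries lay on either side of the RNA-rich values for Sycp3, and below them for Ooep.

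In library 2, 20 germ cells had 8000 UMIs up to the limit, with a median mitochondrial share of 1.40%, and 7 had from 10000 to under 12000 UMIs, with 1.78%. Library 1 held 1 and 2 such cells. At the lower limit of germ cell content, 25 RNA-poor germ cells of library 2 had 0.1 to 0.2% of UMIs in the 7 genes and a median mitochondrial share of 3.13%, and 26 cells just outside it (at least 3 genes, 0.05 to 0.1%) had 2.79%. A further 64 cells of library 2 and 2 of library 1 reached 0.1% with only 2 of the 7 genes.

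The label was checked against germ cell genes that the choice did not use. A list of 75 germ cell genes outside the 7 took a median 2.05% of UMIs in the RNA-poor germ cells of library 1 (0.190 to 5.90%) and 1.96% in those of library 2 (0.0396 to 7.84%). Because these cells are shallow, each RNA-rich germ cell was also thinned at random to a total drawn from the RNA-poor germ cells of its own library. The same list then took 2.06% and 1.91% of the thinned RNA-rich germ cells, and 0.0389% and 0.0486% of RNA-poor cells that were not germ cells (2223 and 2894 cells under 10000 UMIs). In both libraries the median RNA-poor germ cell therefore lay beside the RNA-rich ones and far above the other shallow cells. With 2 libraries against 2 an exact permutation test cannot give a p under 0.333, so these per-cell medians carry no test.

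Single germ cell genes outside the choice were read in cells thinned to 2000 UMIs, which 13 and 173 RNA-poor germ cells reached. Nobox, a homeobox factor needed for the growth of primordial follicles, had a UMI in 46.2% and 57.2% of RNA-poor germ cells, 70.6% and 65.5% of RNA-rich germ cells and 0.638% and 1.03% of other shallow cells. Zp3, the sperm-binding protein of the zona pellucida, had a UMI in 53.8% and 55.5% of RNA-poor germ cells, 68.4% and 53.3% of RNA-rich ones and 0.958% and 1.22% of other shallow cells. Both genes were detected more often in either class of germ cell than in other shallow cells, of which 3 and 12 sat in germ-like clusters. Without thinning, Nobox was found in 63.6% and 61.7% of RNA-poor germ cells and in 2.43% and 3.32% of other shallow cells, whose median totals were 6894 and 4877 UMIs.

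Genes per cell were also compared at 2000 UMIs. The median was 1130 and 1213 genes in RNA-poor germ cells, 1197 and 1176 in RNA-rich germ cells and 1088 and 1078 in other shallow cells. The RNA-poor germ cells lay below the RNA-rich ones in library 1 and above them in library 2, so no direction held in both. Unthinned, they held 1294.5 and 1468 genes against 8247 and 7493.

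Mitochondrial transcripts, which are made inside the organelle, took a smaller share of the typical RNA-poor germ cell. The median was 0.545% of UMIs in library 1 and 0.889% in library 2. It was 2.595% and 2.80% in thinned RNA-rich germ cells, and 2.92% and 2.56% in other shallow cells. A share under 1% was found in 16 of 22 (72.7%) and 158 of 274 (57.7%) RNA-poor germ cells, against 5 of 228 (2.19%) and 29 of 475 (6.11%) RNA-rich germ cells and 0.675% and 2.04% of other shallow cells. The choice capped this share at 10% in all classes. Without the cap the RNA-poor germ cells numbered 33 and 290, and their medians were 1.06% and 0.943% against 2.56% and 2.82% for RNA-rich germ cells. In library 1 the 75th percentile of these uncapped cells was 20.7%, so cells with very high and very low mitochondrial shares were both present.

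**Figure D1:**
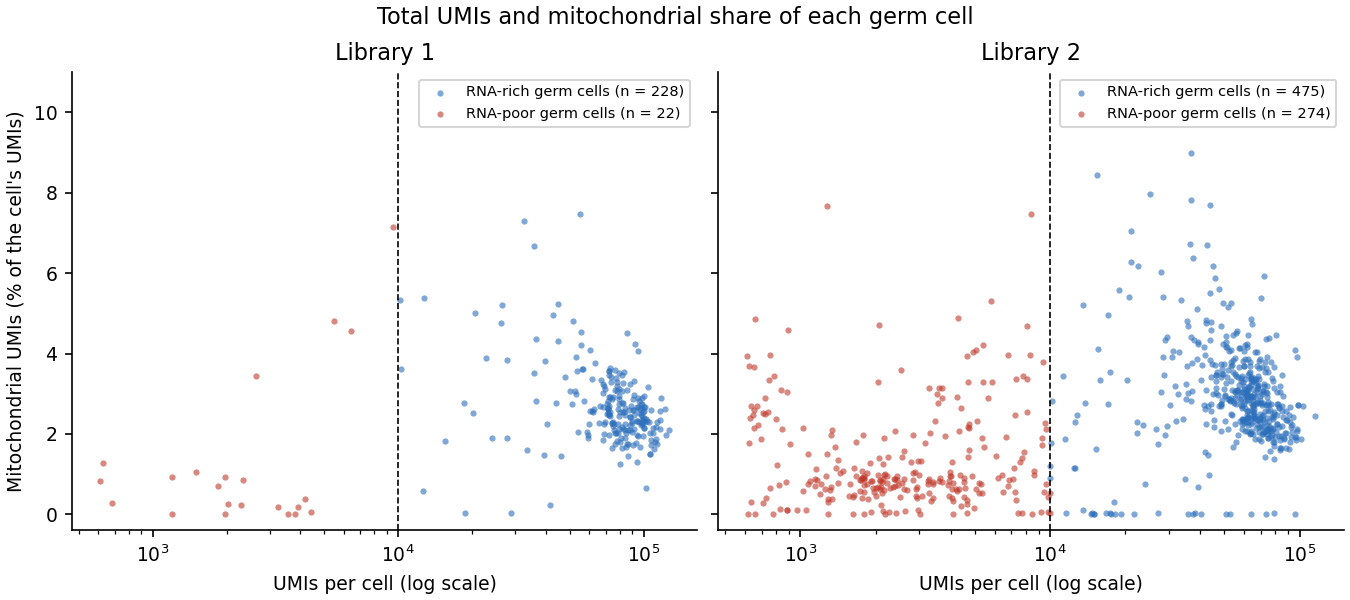
Each point is 1 germ cell, with its total UMIs on a log axis and the percent of its UMIs from mitochondrial genes; the dashed line is the limit of 10000 UMIs between RNA-poor (red) and RNA-rich (blue) cells. Most RNA-poor cells of library 2 form a band under 1%, and most RNA-rich cells lie between 2 and 4%.

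The low share was not a step at the limit of 10000 UMIs in library 2. There the median mitochondrial share was 2.30% in 40 germ cells under 1000 UMIs, 0.826% in 61 cells of 1000 to 2000, 0.846% in 119 cells of 2000 to 5000, 1.35% in 54 cells of 5000 to 10000 and 1.41% in 32 cells of 10000 to 20000. It was 3.58% in 56 cells of 20000 to 40000 and 2.93% in 331 cells of 40000 to 80000. In library 1 the 10 germ cells of 2000 to 5000 UMIs had a median of 0.202%, while the 3 cells of 5000 to 10000 UMIs had 4.81%. These 3 cells decide the summed value of that library. A separate line of cells lay near 0: a share under 0.1% was found in 5 and 22 RNA-poor germ cells, and also in 2 and 22 RNA-rich germ cells, which reached 96153 UMIs in library 2. This line was noticed after the values were seen.

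In the summed cells the mitochondrial genes held 22358 CPM in RNA-poor germ cells of library 1 and 14677 CPM in those of library 2. RNA-rich germ cells held 25692 and 28609 CPM. The RNA-poor sum was lower in each library, by little in library 1. None of the 12 mitochondrial genes tested passed the test described below, where 0% of all genes were called lower. Of the 12, 11 had a negative log2 fold change, with a median of -0.56 against -0.00 over all genes. With a limit of 5000 UMIs 8 of the 12 were called lower, against 0.182% of all genes tested. With cells of 1000 genes or more and 5% mitochondrial UMIs or less 5 were (0.207% of all genes), with every cell thinned to 2000 UMIs 4 (0.368%), and without a filter on low counts 1 (0.557%). The limit of 5% acts on the mitochondrial share itself, so the count of 5 partly follows from that filter. The direction of the median log2 fold change turned without the cap on mitochondrial UMIs, where it was 2.37.

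Ribosomal protein genes, which code for the proteins of the ribosome, took a median 20.6% and 18.7% of UMIs in RNA-poor germ cells and 20.4% and 21.0% in thinned RNA-rich ones. Malat1, an abundant RNA kept in the nucleus, was at a median of 0% in library 1, where 15 of 22 RNA-poor germ cells (68.2%) had none, and at 0.113% in library 2, where 18.2% had none. Thinned RNA-rich germ cells had 0.133% and 0.127%, with none in 14.0% and 19.2% of cells, and other shallow cells had 1.51% and 1.81%. At like depth Malat1 was thus missing from more RNA-poor than RNA-rich germ cells in library 1 and from about the same share in library 2. Its summed level was 2343 and 5639 CPM in RNA-poor against 1504 and 1540 CPM in RNA-rich germ cells. The highest single cell had 5.86% of its UMIs from Malat1 in library 1 and 5.29% in library 2. With a 75th percentile of 0.0249% in library 1, a few cells carry its 2343 CPM, which is not a level of the class.

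**Figure D2:**
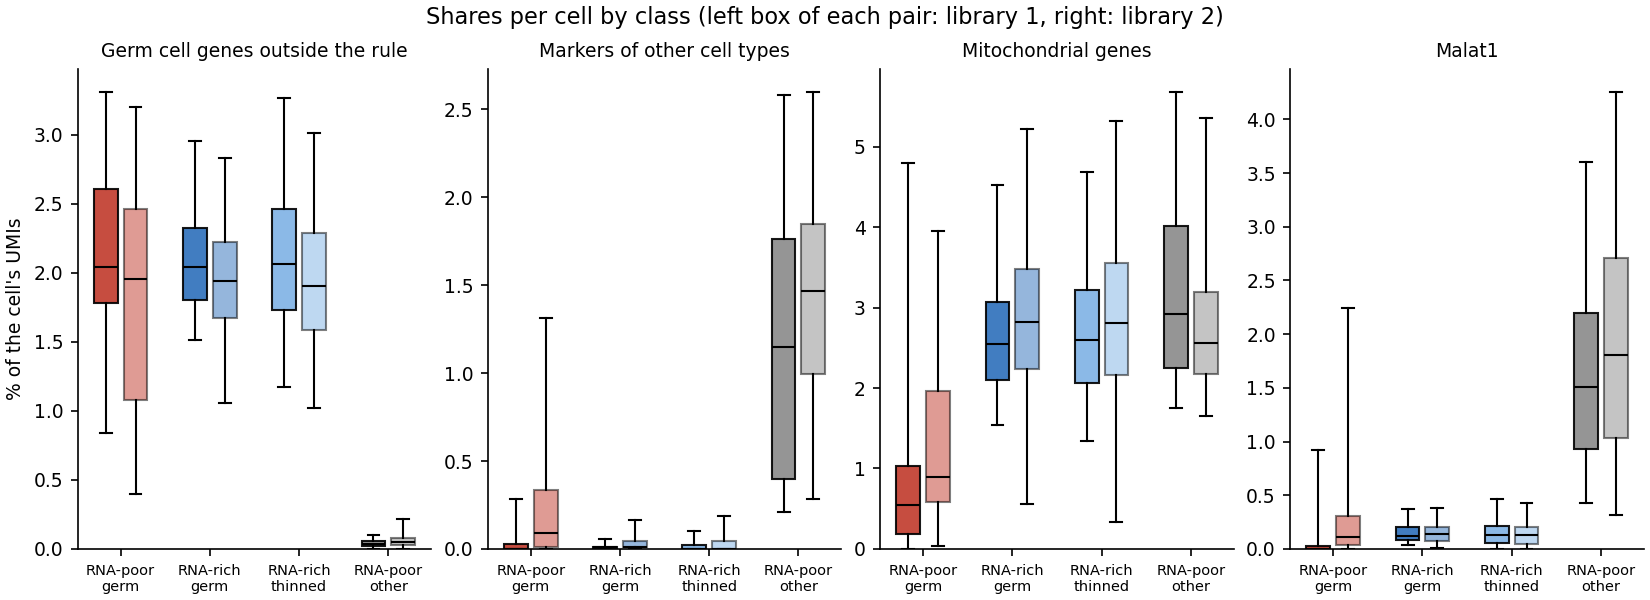
Boxes give the median and quartiles, and whiskers the 5th and 95th percentiles, of the percent of each cell's UMIs in 4 measures for 4 classes of cells, with library 1 left and library 2 right in each pair. RNA-poor germ cells (red) sit with RNA-rich germ cells for the 75 germ cell genes, and below all other classes for mitochondrial genes.

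Part of the RNA-poor class of library 2 also carried transcripts of other ovarian cells. A list of 68 markers of granulosa, interstitial, mesothelial, endothelial, perivascular, immune and erythroid cells took a median of 0% in the RNA-poor germ cells of library 1 and 0.0928% in those of library 2. It was 0% in thinned RNA-rich germ cells of either library, and 1.15% and 1.47% in other shallow cells. The level of the 5th percentile of other shallow cells was reached by 2 of 22 (9.09%) and 76 of 274 (27.7%) RNA-poor germ cells, against 2.63% and 2.95% of thinned RNA-rich germ cells. For these cells the data go against a plain germ cell label.

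Interstitial markers were the most frequent in library 2, and defining markers of other types were nearly absent in library 1. At least 3 interstitial UMIs were found in 81 of 274 RNA-poor germ cells (29.6%) and 27 of 475 thinned RNA-rich germ cells (5.68%) of library 2, and in 1 of 22 and 2 of 228 in library 1. The granulosa list reached 3 UMIs in 39 of 274 (14.2%) and 42 of 475 (8.84%). In library 2 the summed interstitial list held 2072 CPM in RNA-poor germ cells and 166 CPM in RNA-rich ones, with all 11 genes present and Dcn (decorin, a matrix proteoglycan) the most abundant at 477 CPM. In library 1 it held 107 and 65.7 CPM. There 7 UMIs from 6 of the 11 genes were found, and Col3a1, Lum, Pdgfra, Tcf21 and Postn were at 0. All mesothelial and perivascular markers were also at 0 in library 1, which at 65302 UMIs could hide low levels. Its 12 endothelial UMIs came from 1 cell.

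Within library 2 the measures moved together across the 274 cells. The Spearman correlation of the 75 germ cell genes was -0.68 with the markers of other types and -0.63 with the mitochondrial share, and these last measures correlated at 0.60. Total UMIs correlated with none of them beyond 0.03 in size. The points share 1 library and its depth, and shares of 1 total are not independent of each other. In library 1, with 22 cells, the same coefficients were -0.17, -0.06 and 0.03.

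Clusters drawn on variable genes without the 7 chosen ones placed most, not all, of the RNA-poor germ cells with germ cells. Among 23 clusters, those called germ-like from their markers held 21 of 22 cells in library 1 and 206 of 274 in library 2. Nearly all of these, 20 and 200, fell in cluster 18, a shallow cluster led by Nlrp5, Mael, Dppa3 and Zp2. It held 8 and 36 RNA-rich germ cells, while cluster 6 held most RNA-rich germ cells of library 1 and cluster 22 most of library 2. The germ-like names rest on 16 germ cell markers that include the 7 genes. RNA-poor germ cells made up 20 of 31 and 200 of 248 cells of cluster 18, so its name partly follows from the choice. The cells in cluster 18 had a median mitochondrial share of 0.338% and 0.762%, and 2.05% and 2.16% of UMIs in the 75 germ cell genes.

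The other 68 cells of library 2 were spread over clusters that were not called germ-like. Interstitial-like clusters held 25 of them, 19 in cluster 3, where their median was 5652 UMIs, 0.664% germ cell genes, 1.05% markers of other types and 2.28% mitochondrial UMIs, and 7 of those 19 were called likely doublets. Cluster 11, an unnamed shallow cluster led by haemoglobin and neutrophil genes, held 24 cells with a median of 686.5 UMIs and 2 likely doublets. Cluster 19, unnamed and present in library 2 only with 15 cells, held 13 RNA-poor germ cells and was led by Pglyrp1, Upk3b and Krt19. Among the marker lists its best match was germ cell markers, with 14 detected. Those 13 cells had a median of 4921 UMIs, 0.550% germ cell genes, 0.374% markers of other types and 2.33% mitochondrial UMIs, and none was called a doublet. Granulosa-like and perivascular-like clusters held 2 cells each, a mesothelial-like cluster 1 and an unnamed cluster 1. The part of free RNA in these cells was not tested.

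**Figure D3:**
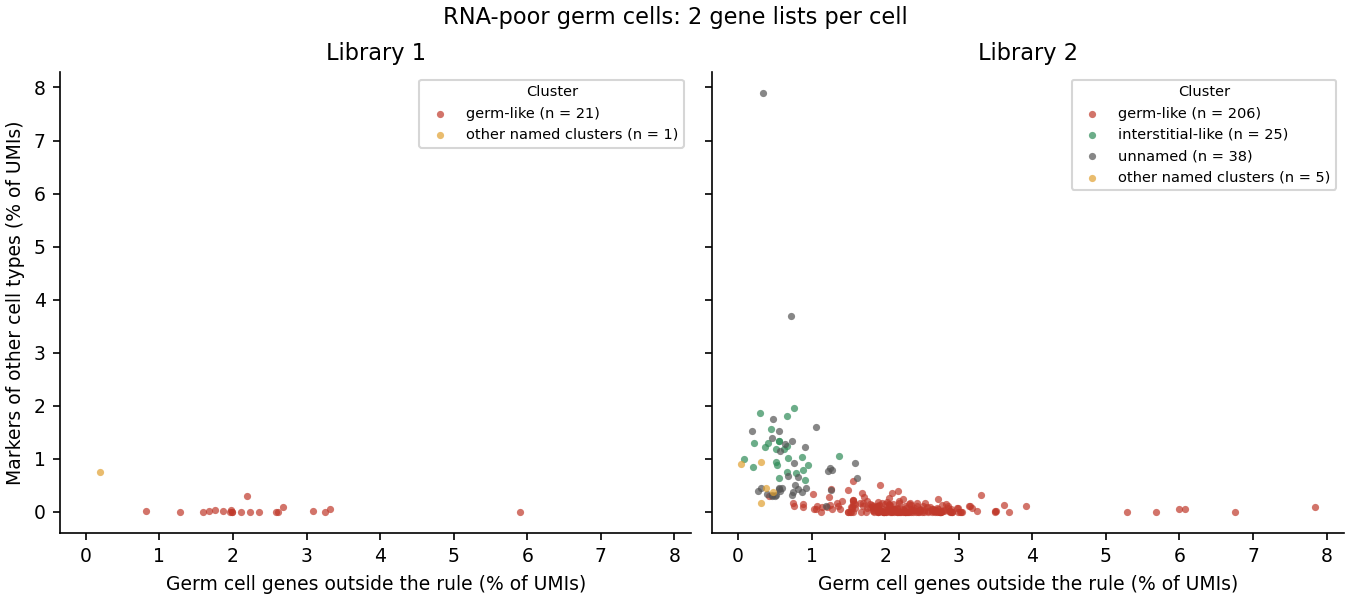
Each point is 1 RNA-poor germ cell, with the percent of its UMIs in 75 germ cell genes outside the choice against the percent in 68 markers of other cell types, coloured by the kind of cluster that held it. Cells of germ-like clusters lie along the bottom, and cells of interstitial-like and unnamed clusters of library 2 have few germ cell transcripts and more markers of other types.

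A stricter choice used the same 7 genes, so what it left out is given as a description. Where the 7 genes had to reach 0.5 of the median share of RNA-rich germ cells, 21 and 214 cells remained, with median mitochondrial shares of 0.385% and 0.797%. Their summed markers of other types held 160 and 1204 CPM, against 249 and 384 CPM in RNA-rich germ cells. The 249 CPM includes 1 RNA-rich cell with 13.9% of such markers, where the median RNA-rich cell of library 1 had 0.00987%. The order of 160 and 249 CPM can therefore rest on that cell. The 60 cells of library 2 left out had 6813 CPM of such markers, 7187 CPM of germ cell genes outside the choice (22909.5 CPM in the 214 cells) and a median mitochondrial share of 2.13%. In library 1 this choice left out 1 cell, which had a mitochondrial share of 3.45%.

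Differences between classes were tested on UMIs summed over the cells of each class in each library, 2 sums against 2, with edgeR's quasi-likelihood test. A gene was called when its Benjamini-Hochberg adjusted p was under 0.05 and its fold change over 2. Against RNA-rich germ cells thinned to the same depth, 16 of 7843 genes (0.204%) were higher in RNA-poor germ cells and 0 (0%) were lower. A gene near 0 in RNA-rich germ cells can pass the filter on low counts through the RNA-poor sums alone. There 1 UMI of library 1 is 15.6 TMM-scaled CPM, so the count of higher genes partly follows from the filter. At an unadjusted p under 0.05, 662 genes were higher (8.44%) and 387 lower (4.93%), and DESeq2 called 1 gene higher and 0 lower. With the library as a block, since both classes of a library come from the same animals, 70 genes were higher and 2 lower, and 15 of the 16 genes were among the 70.

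Igfbp7, a secreted protein that binds insulin-like growth factors, passed with the smallest adjusted p (chr5:77349240-77408041, GRCm38, minus strand). It stood at 234 and 239 TMM-scaled CPM in RNA-poor germ cells of libraries 1 and 2, and at 4.82 and 13.5 in thinned RNA-rich ones. Both RNA-poor values were above both RNA-rich values, as they were for 18.2% of all genes tested (24% had both below), with a log2 fold change of 4.45 (SE 0.35, edgeR adjusted p = 0.0034). The call ended where the 7 genes had to reach 0.2% of UMIs (log2 fold change 2.83, adjusted p = 0.108). Over the other settings that gave a test the adjusted p was at most 0.0351, and at 0.5 of the RNA-rich median the gene was not tested. All 15 UMIs of library 1 came from 1 cell, the one in an endothelial-like cluster, and the other 21 cells had none, so 234 CPM is not a level of the class. In library 2 the 210 UMIs came from 53 of 274 cells, with 100 of them in the 25 cells under 0.2%. The same cell of library 1 held all UMIs of Bgn, H19, Igfbp4, Sh3bgrl and Zfp36l1 there, and none of those of Pglyrp1, Igfbp5, Gsdme and Lsp1.

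Of the other named genes, Bgn, the matrix proteoglycan biglycan, had 15.6 and 176 CPM against 4.82 and 14.8 (log2 fold change 3.66, SE 0.54). Igfbp5, a further binding protein of insulin-like growth factors, had 46.7 and 154 CPM against 4.82 and 13.5 (3.64, SE 0.45). Igfbp4, of the same family, had 46.7 and 258 CPM against 9.64 and 25.8 (3.37, SE 0.50). The groups did not overlap for any of these, as for the 18.2% of all genes tested with both RNA-poor values higher. Library 1 held only 1, 3 and 3 UMIs of them in RNA-poor germ cells. For Bgn the gap of 15.6 against 14.8 CPM rests on that 1 UMI. Each had an edgeR adjusted p of 0.0458.

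Another 3 genes had the same adjusted p of 0.0458. H19, an imprinted long noncoding RNA, had 15.6 and 154 CPM against 6.43 and 12.2. Pglyrp1, a peptidoglycan recognition protein that also led cluster 19, had 31.1 and 80.8 CPM against 8.03 and 4.51. Sh3bgrl, a small thioredoxin-like protein, had 31.1 and 77.4 CPM against 11.2 and 9.02. For these 3 genes library 1 gave 1, 2 and 2 UMIs in the RNA-poor germ cells. All 3 passed the filter on low counts through the RNA-poor sums alone, so their calls are a description. Every RNA-poor value was above every RNA-rich one, as for 18.2% of all genes tested.

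The last named genes had the smallest changes. Gsdme, a gasdermin that forms membrane pores once cut, had 62.3 and 200.2 CPM against 32.1 and 26.4 (log2 fold change 2.60, SE 0.36). Lsp1, an actin-binding protein best known from leukocytes, had 77.9 and 130 CPM against 25.7 and 30.3 (2.08, SE 0.29). Zfp36l1, which binds AU-rich elements and promotes mRNA decay, had 77.9 and 106 CPM against 27.3 and 25.8 (1.94, SE 0.29). All 3 were higher in both libraries, on 4, 5 and 5 UMIs in library 1.

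**Figure D4:**
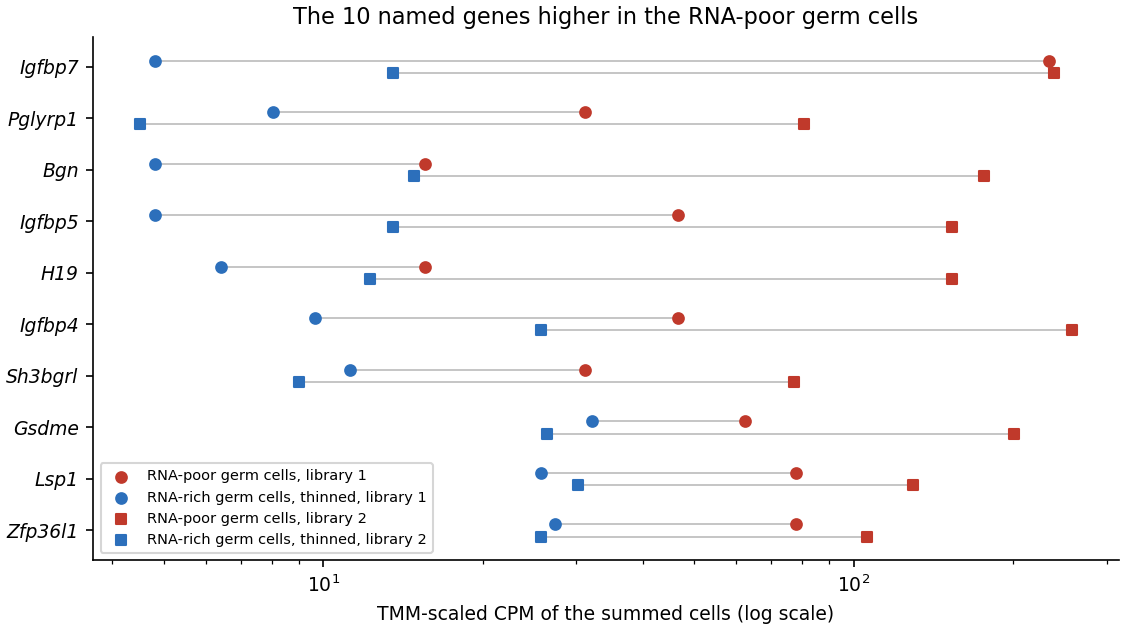
Points give the TMM-scaled CPM, on a log axis, of the 10 named genes in the summed RNA-poor (red) and thinned RNA-rich (blue) germ cells, with circles for library 1 and squares for library 2. Every red point lies to the right of the blue point of its library, and library 2 shows the wider gap for all but Igfbp7.

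Lyz2, Aebp1, Cav1, Islr, Armcx3 and Emp1 were also called, at mean levels under 50 CPM. Lyz2, lysozyme of macrophages and neutrophils, had 1 and 18 UMIs in RNA-poor germ cells and none in the thinned RNA-rich cells. Lyz2 passed the filter on low counts through the RNA-poor sums alone, as did Aebp1, Cav1, Islr, Armcx3 and Emp1, so these calls are a description. The 1 UMI of Lyz2 in library 1 came from the cell in an endothelial-like cluster. In library 2, 1 cell held 22 of the 26 immune marker UMIs. Of the 11 immune markers 1 had a UMI in library 1 (Lyz2) and 7 in library 2, where Fcer1g had 3 UMIs and Tyrobp, Aif1, Csf1r, C1qb and Cd74 had 1 each. Ptprc, Cd52, Laptm5 and C1qa were at 0 in both libraries. The 11 interstitial markers together held 107 and 2072 CPM in RNA-poor germ cells against 65.7 and 166 CPM in RNA-rich ones. Of these 7, and of 12 granulosa markers 5, passed the filter on low counts. Markers low in RNA-rich germ cells can pass it through the RNA-poor sums alone. None was called, against 0.204% of all genes tested called higher. These values sit beside the 16 called genes in the same cells, and the part of other cells' RNA in the 16 was not tested. Where the 7 genes had to reach 0.5 of the RNA-rich median, 4 genes were higher and 1 of the 16, Gsdme, was among them. Where they had to reach 0.2% of UMIs, the 2 genes called were Igfbp5 and Gsdme.

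No oocyte list held a called gene. Of all genes tested only 0.204% were called higher and 0% lower, so a count of 0 in lists this short says little. None of the 9 germ cell markers, 7 oocyte transcription factors, 5 zona pellucida and oocyte-secreted genes, 13 maternal-effect genes, 14 meiotic prophase genes or 17 pan-germ cell and piRNA genes tested was called. Their median log2 fold changes were -0.28, -0.24, -0.43, -0.02, -0.02 and 0.04. A miss of the threshold with 2 libraries does not show that the levels were the same.

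Values of the most abundant members show the spread. Dppa3, a maternal factor that protects DNA methylation in the zygote, had 5681 and 4385 CPM in RNA-poor and 5224 and 5007 CPM in RNA-rich germ cells. Uchl1, a deubiquitinase abundant in oocytes, had 3400 and 2722 CPM against 3318 and 2928. Nlrp5, a scaffold of the subcortical maternal complex, had 1057 and 1366 CPM against 1262 and 1347. For all 3 the classes overlapped.

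Zona pellucida and oocyte-secreted genes differed in direction, with 2 of the 5 tested above 0 on the log2 scale. Zp3 had 766 and 580 CPM in RNA-poor and 1250 and 756 CPM in RNA-rich germ cells, and Zp1, which cross-links the zona, had 153 and 177 against 316 and 249. Gdf9, a growth factor that oocytes send to granulosa cells, had 229.7 and 260.4 against 423 and 378. Zp2, the receptor-like zona protein, had 551 and 997 against 778 and 862. The classes overlapped for Zp2 and Zp3 and did not for Zp1 and Gdf9, with both RNA-poor values lower, as for 24% of all genes tested. Gdf9 had an edgeR adjusted p of 0.266.

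Meiotic and germ line genes showed no shared direction. Smc1b, the meiotic cohesin subunit, had 536 and 512 CPM in RNA-poor and 505 and 564 CPM in RNA-rich germ cells. Sycp1, the transverse filament of the synaptonemal complex, had 413 and 131 against 221 and 164. Mael, which acts in piRNA silencing of transposons, had 750.4 and 658 against 491 and 576. Gtsf1, a partner of PIWI proteins, had 567 and 853 against 1296 and 1576 CPM. Both RNA-poor values lay above both RNA-rich ones for Mael (18.2% of all genes tested) and below them for Gtsf1 (24%), the latter with an edgeR adjusted p of 0.125.

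Survival, stress and clearance genes were read because germ cells are being lost at this age. None of the 12 oocyte survival and apoptosis genes tested was called (median log2 fold change -0.31), nor of 7 DNA damage and stress genes (0.65), 19 lysosome and autophagy genes (0.17) or 6 heat shock genes (0.11). Over all genes tested 0.204% were called higher and 0% lower, so these counts of 0 are near that share. Bax, the pore-forming effector of the mitochondrial death pathway, had 153 and 143 CPM in RNA-poor and 217 and 219.7 CPM in RNA-rich germ cells. Kit, the receptor for a granulosa signal that keeps oocytes alive, had 168 and 158 against 218 and 146. Lamp1, a lysosome membrane protein, had 1332 and 1067 against 965 and 888. The RNA-poor values lay below both RNA-rich values for Bax and above both for Lamp1, as for 24% and 18.2% of all genes tested, with edgeR adjusted p of 0.1996 and 0.564.

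Immediate-early genes, which dissociation can induce, had positive values in the test, though most of their library 1 UMIs came from 1 cell. All 11 tested had a positive log2 fold change (median 1.62) and an unadjusted p under 0.05, as 8.44% of all genes tested did. None was called, against 0.204% of all genes called higher. Fos had 76.6 and 772 CPM in RNA-poor germ cells, 45.1 and 110 CPM in RNA-rich ones and 2926 and 3374 CPM in other shallow cells. Its 76.6 CPM rests mostly on the cell of library 1 in an endothelial-like cluster, which had 1517 CPM of Fos. It is not a level of the class. Of the 37 UMIs of the list in library 1, 24 came from the cell in an endothelial-like cluster. The other 21 cells held 207 CPM, against 344 CPM in RNA-rich germ cells, so the direction turned there. In the 214 cells of library 2 with the higher germ cell share the whole list held 1164 CPM, and in the 60 cells below it 6544 CPM. Nuclear-retained RNAs had a median of 1.43 over 4 genes and none called, with Malat1 at 1.35 (SE 0.34, edgeR adjusted p = 0.128). A few cells carried the Malat1 sum of library 1. Malat1 held 1963 CPM in the 214 cells of library 2 and 13935 CPM in the 60. The 214 and 60 cells of library 2, and the 21 and 1 of library 1, were split by the 7 genes that chose the germ cells. These values are therefore a description.

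**Figure D5:**
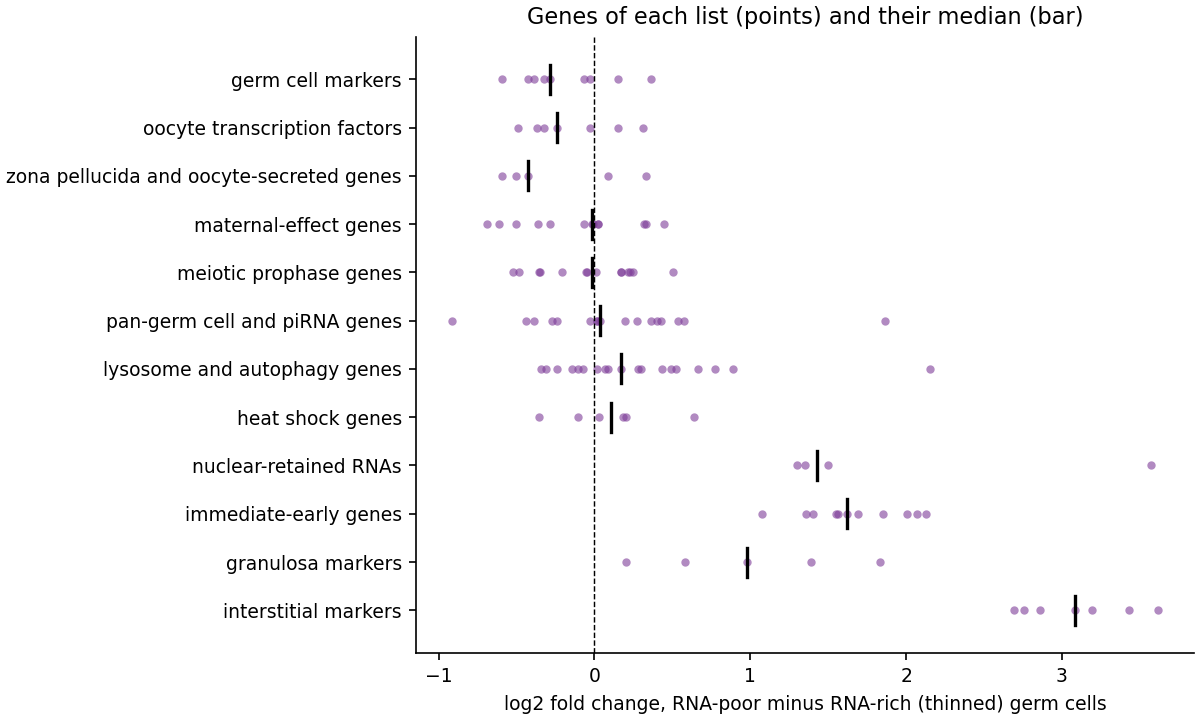
Each point is a gene of a list, placed by its log2 fold change between RNA-poor and thinned RNA-rich germ cells; bars are list medians and the dashed line is the median of all genes tested. Medians of the oocyte lists lie between -0.43 and 0.04. Only genes that passed the filter on low counts are shown, 7 of 11 for the interstitial markers, so the place of such a list partly follows from the filter.

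Against other shallow cells the differences were far wider. With no thinning, 1691 of 12942 genes (13.1%) were higher in RNA-poor germ cells and 1687 (13%) lower. With the library as a block the counts were 948 and 758. The cells were chosen on 7 germ cell genes, so higher germ cell genes follow from the choice and are given as a description. A gene near 0 in either class can pass the filter on low counts through the other class alone, so both counts partly follow from the filter. The median log2 fold change over all genes was -0.27, and -0.08 when sums were scaled by library totals alone.

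The germ cell lists were higher almost in full. All 13 maternal-effect genes, 6 oocyte transcription factors, 5 zona pellucida and oocyte-secreted genes and 9 germ cell markers tested were called higher, as were 13 of 18 meiotic prophase genes and 16 of 18 pan-germ cell and piRNA genes, of which Nanos3 was lower. Foxr1, a forkhead factor, led the named genes (chr9:44433773-44441136, GRCm38), with 88.6 and 71.0 TMM-scaled CPM against 0.151 and 0.753. Syce3, a central element of the synaptonemal complex, had 144 and 22.5 CPM against 0.227 and 0.452. Miox, which breaks down myo-inositol, had 122 and 61.6 against 0.454 and 0.603. The long noncoding RNA Rbakdn had 188 and 56.8 against 0.454 and 0.829, and Olah, a thioesterase of fatty acid synthesis, had 44.3 and 61.6 against 0.227 and 0.603. For all of these both RNA-poor germ cell sums stood far above both sums of other cells.

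Lists of other functions were mixed, and their counts stand beside the 13.1% of all genes called higher and the 13% called lower. Of the 10 cell cycle genes, Top2a was lower and 5 were higher, among them Ube2c (1164 and 1375 CPM against 69.5 and 115), a ubiquitin-conjugating enzyme of the anaphase, and Birc5 (888 and 991 against 97.1 and 141), the survivin of the chromosomal passenger complex. Of 9 heat shock genes 3 were higher (Hsp90aa1, Hspd1 and Hsph1) and 2 lower (Dnajb1 and Hspa1a), with a list median of -0.78 on the log2 scale. Hsp90aa1 had 2710 and 1685 CPM against 472 and 426. Of 8 DNA damage and stress genes Ccng1 was higher and 4 were lower (Atf4, Ddit3, Gadd45b and Ppp1r15a), and of 19 lysosome and autophagy genes 2 were higher (Lamp1 and Atp6v1e1) and 7 lower. Of 81 ribosomal protein genes 2 were higher, Rpl10l and Rpl39l, both known as germ line copies of broadly used genes, and 5 were lower. Among 20 survival and apoptosis genes Kit, Trp63, Bid and Bcl2l10 were higher, and Bak1, Bcl2, Mcl1 and Trp53 were among the lower ones. Trp63 codes for the p63 that guards oocyte DNA.

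Markers of most other ovarian cell types were among the lower genes, which made up 13% of all genes tested. All 11 interstitial markers, 9 of 10 immune, 6 of 12 granulosa, 5 of 8 perivascular, 2 of 10 endothelial, 2 of 4 erythroid and 0 of 7 mesothelial markers tested were called lower. C1qa, a complement subunit made by macrophages (chr4:136895917-136898803, GRCm38), was at 0 UMIs in the RNA-poor germ cells of both libraries and at 28.2 and 78.4 TMM-scaled CPM in other shallow cells. Set against 3 UMIs over the group, it was at least 15.1-fold lower (edgeR adjusted p = 0.0018). C1qa passed the filter on low counts through the other cells alone, so its call is a description. S100a8 of neutrophils, the chemokine Cxcl2 and the cation channel gene Pkd2 had 0 UMIs in library 1 and 1, 2 and 2 in library 2, too few for a fold. The long noncoding RNA Gm37350 had 0 and 7.10 CPM against 278 and 20.3, so its level in other cells differed between libraries more than between classes of library 2.

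RNA kept in the nucleus was lower too, as was mitochondrial RNA among cells under the cap of 10% mitochondrial UMIs. Malat1 had a log2 fold change of -2.36 (SE 0.44, edgeR adjusted p = 0.0014), and all 5 nuclear-retained RNAs and all 12 immediate-early genes were called lower, against 13% of all genes tested. Of 13 mitochondrial genes, 5 were lower (mt-Co1, mt-Co2, mt-Co3, mt-Nd1 and mt-Nd3), with a median log2 fold change of -0.99 over the 13. The RNA-poor germ cells held 22358 and 14677 CPM of mitochondrial RNA against 33245 and 29344 CPM. Both libraries thus lay below both sums of other shallow cells. The cap acts on the mitochondrial share itself, so these calls and sums can follow from it and are a description. Without the cap the 75th percentile of RNA-poor germ cells in library 1 was 20.7%. Against RNA-rich germ cells the median log2 fold change of mitochondrial genes turned to 2.37 without it.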

How the data were processed

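The files are UMI count matrices that the authors deposited for each library, from Chromium 3' libraries processed with Cell Ranger 3.0.2 on GRCm38 per the labels, with 31057 genes; the labels and the methods name different kit versions. Barcode and gene tables name cells and genes. The RNA-poor germ cells and the gene lists were chosen with earlier results of these data known. Cells were filtered (at least 500 genes, at most 10% mitochondrial UMIs) and classed in Python 3.11.15. Clustering used scanpy 1.11.5 with 1993 variable genes, 30 components, 15 neighbours and resolution 1. Likely doublets were called with Scrublet and kept, with the threshold of library 1 (0.225) used for both because that of library 2 (0.521) was far higher. Counts were summed per class and library and tested with edgeR 4.0.16 (filterByExpr, TMM, quasi-likelihood), with the 7 genes left out of the test. DESeq2 1.42.0 was an alternative. CPM of the genes named for the largest changes are TMM-scaled and come from the fit. Other CPM come from raw sums. Named genes were the 10 (RNA-rich comparison) or 5 (other cells) largest changes in each direction among called genes with a mean of at least 50 CPM in the higher class and the same sign in both libraries, the 4 most abundant genes of each list, and Malat1, mitochondrial and ribosomal protein sums. Only some list genes are printed. Gene positions are from GENCODE on GRCm38, matched by Ensembl ID, and 36 symbols occur more than once in the files. Classes of a library come from the same animals, which pairs them. Deviations of same-library sums correlated at 0.191 (RNA-rich comparison) and 0.0577 (other cells) across genes. Alternatives were the library block, DESeq2, no TMM, no low-count filter, each library left out, doublets removed, stricter cell filters, other UMI and germ cell limits and other thinning, and, chosen after seeing the data, no limit on mitochondrial UMIs. No sequence is shown.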

Additional observations from a re-analysis of the deposited data

Results flagged for a closer look

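Cells that fail the filters were not used above, yet some meet the germ cell definition. They numbered 22 of 356 in library 1 (6.18%) and 53 of 383 in library 2 (13.8%). In library 1, 21 of the 22 had more than 10% mitochondrial UMIs, with a median of 7477.5 UMIs. In library 2, 36 of the 53 had under 500 genes and 24 had more than 10% mitochondrial UMIs, with a median of 609 UMIs.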

How the results depend on the processing

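The number of RNA-poor germ cells (296) stayed within 1.5 times under all alternatives, from 218 to 323. Counts against RNA-rich germ cells (16 higher, 0 lower) depended on the settings: 70 and 2 with the library block, 1 and 0 with DESeq2, 38 and 0 without TMM, 368 and 91 without a low-count filter, 68 and 2 without doublets, 165 and 16 with cells of 1000 genes or more and 5% mitochondrial UMIs or less, 61 and 12 with a limit of 5000 UMIs, 105 and 21 with every cell thinned to 2000 UMIs, 102 and 13 without thinning of RNA-rich cells, 2 and 0 with the 7 genes at 0.2%, 4 and 0 at 0.5 of the RNA-rich median, and 1 and 0 without the mitochondrial limit. The cause of these shifts was not tested. Of the 16, 16 kept a 2-fold difference without library 1 and 14 without library 2, with no test.

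Counts against other shallow cells (1691 higher, 1687 lower) were 948 and 758 with the library block, 824 and 1062 with DESeq2, and 0 and 0 without a low-count filter, where 5743 genes had an unadjusted p under 0.05. Lower genes numbered 4343 with the 7 genes at 0.2% and 4658 at 0.5 of the RNA-rich median. Of the 1691 and 1687 genes, 1099 to 1626 higher and 1559 to 1636 lower ones kept a 2-fold difference with a library left out, with no test. The 1099 was without library 2. The median log2 fold change of mitochondrial genes against RNA-rich germ cells was -0.56, from -0.95 to -0.14 with a library left out, -1.61 with a limit of 5000 UMIs, and turned to 2.37 without the mitochondrial limit. None of the genes named for the largest changes reversed, nor did Malat1. The most abundant genes of each list were not followed through the alternatives. Over its fits the adjusted p of Igfbp7 was at most 0.108, at 0.2% for the 7 genes, and DESeq2 gave 0.999 for Bgn, Igfbp4, Lsp1, Sh3bgrl and Zfp36l1.

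Library 1 gives 65302 UMIs for this class, and 9 of the 10 named genes higher than in RNA-rich germ cells had 1 to 5 UMIs there. With 2 libraries, p-values measure the spread between these samples only.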
